A study of Mus musculus with 2 samples.

Results

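Non-coding RNA genes make transcripts that are not translated into a protein of known function. Many long non-coding RNAs, though not all, are spliced and polyadenylated like messenger RNAs, and some act on the gene beside them, on chromatin or as sponges for proteins. Others serve mainly as carriers: small nucleolar RNAs (snoRNAs), which guide the chemical modification of ribosomal RNA, are cut from the introns of host transcripts. Transcribed pseudogenes are copies of protein-coding genes that no longer encode the protein, and small structural RNAs form the working core of the spliceosome, of ribonuclease P and MRP and of the signal recognition particle.

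The genes described here are the brightly detected non-coding RNA genes of mouse CD8 T cells, 175 genes of the 2217 non-coding RefSeq genes with a probe on the array. They were chosen by their measured signal. A probe for a RefSeq non-coding transcript had to be well above background on both arrays and to reach 400 intensity units on at least 1 of them, and Gas5, the Snhg genes and protein-coding genes were left out. Of 2556 such probes, 743 were well above background on both arrays and 226 of these reached the threshold. Removal of 12 probes without a RefSeq symbol, 13 for protein-coding genes and 12 for Gas5 or Snhg genes left 189 probes. The 175 genes comprise 101 long non-coding RNA genes, 61 transcribed pseudogenes and 13 small structural or other RNAs. These 13 are called small structural RNAs below, although not all are small, such as the ribosomal RNA Rn28s1. A value from spots without an outlier flag was obtained for 160 of the 175 genes, and the other 15 are given apart. Because a gene could enter through the array where it is bright, the brightness rule favours genes that differ. The protein-coding genes used for comparison also had to reach 400 units on at least 1 array. For them the mean over all probes well above background counted, whereas a non-coding gene could enter through 1 bright probe.

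The study asks what a glucocorticoid leaves behind in activated CD8 T cells. Naive CD8 T cells (low in CD44, high in CD62L) from the spleen of C57BL/6 mice, whose age the labels do not give, were activated with fixed antibodies, 3 µg/ml against TCRβ, part of the T cell antigen receptor, and 1 µg/ml against the costimulatory receptor CD28. Both cultures held interleukin-2 at 10 ng/ml throughout. During the 2 days of stimulation, 1 culture received vehicle and the other 1 µM prednisolone, a synthetic glucocorticoid that acts through the glucocorticoid receptor. Both were then cultured on a new plate with interleukin-2 alone for 3 days, which makes day 5 of culture, and 100 ng of total RNA was labelled for a 1-colour Agilent array. There was 1 array per condition, so no difference was tested, no p-value can be given and the spread between cultures is unknown. Differences are log2 values, prednisolone minus vehicle, after scaling each array to its 75th percentile, and ± is the scanner software's error over both arrays. "Higher" and "lower" compare these 2 arrays.

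On each array 53.5% of 59305 spots were well above background and no spot was saturated. Of 8 T cell genes listed as markers of CD8 T cells, 6 were measured on both arrays, with differences from -0.95 to -0.01. Their summed signals were 114517 on vehicle and 76893 on prednisolone. Cd8a itself read 3716 and 3567 units (-0.01), and the brightest of the 6, Cd3d, read 61821 and 39057 units (-0.61). Cd79a and Ms4a1 of B cells and Lyz2 and Adgre1 of myeloid cells were not well above background. Pax5 (14.5 and 13.2) and the natural killer cell gene Klrb1c (23.1 and 23.4) were dim on both arrays. The 2 CD4 T cell genes summed to 734 and 709.6, with differences from -0.75 to 0.08. The 3 measured myeloid markers summed to 1442 and 628. Of these, Cd68 differed by -2.22, Csf1r by 0.23 and Itgam by 0.02, and the erythroid marker Hba-a1 went from 47.2 to 715 units. The part of these markers in the differences below was not tested. In RNA from a whole culture, fewer cells of a type and less RNA per cell cannot be told apart.

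The promoter windows of 9 genes are shown because they belong to the 6 genes at least 4-fold apart and to the 3 snoRNA hosts at least 2-fold apart, all with a value. Each is the RefSeq sequence of GRCm38.p6 from 250 bases before to 50 bases after a start site, in the direction of the gene. Capitals mark a match, on either strand, to the core of the glucocorticoid response element (ACANNNTGT), to the hexamer of that element (AGAACA) or to the E-box (CACGTG) bound by Myc and related factors. 8430426J06Rik has 2 windows, each with 1 match to the hexamer, and the one at chr15:81247922-81248221 on the minus strand is shown. Of the other higher genes, Gm13546 lies at chr2:58163724-58164023 on the plus strand, 1700001L05Rik at chr15:83367248-83367547 on the minus strand and 2210408F21Rik at chr6:31220101-31220400 on the plus strand. The lower genes 4930417O13Rik and 1700042O10Rik lie at chr6:125265275-125265574 and chr11:11867873-11868172, both on the plus strand. The hosts 2410006H16Rik and 2700038G22Rik lie at chr11:62602627-62602926 and chr5:23850347-23850646 on the plus strand, and 5730408K05Rik at chr19:8888721-8889020 on the minus strand.
8430426J06Rik: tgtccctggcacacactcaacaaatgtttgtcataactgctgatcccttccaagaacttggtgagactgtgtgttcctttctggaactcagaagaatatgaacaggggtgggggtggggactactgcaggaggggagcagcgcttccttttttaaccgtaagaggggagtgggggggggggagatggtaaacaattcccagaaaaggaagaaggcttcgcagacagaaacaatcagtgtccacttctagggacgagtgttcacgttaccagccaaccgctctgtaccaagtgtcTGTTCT
Gm13546: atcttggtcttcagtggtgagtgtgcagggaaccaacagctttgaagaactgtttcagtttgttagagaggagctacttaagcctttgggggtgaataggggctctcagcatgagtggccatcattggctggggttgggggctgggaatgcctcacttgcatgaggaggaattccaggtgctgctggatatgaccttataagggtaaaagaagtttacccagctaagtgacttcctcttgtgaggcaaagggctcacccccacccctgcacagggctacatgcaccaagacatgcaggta
1700001L05Rik: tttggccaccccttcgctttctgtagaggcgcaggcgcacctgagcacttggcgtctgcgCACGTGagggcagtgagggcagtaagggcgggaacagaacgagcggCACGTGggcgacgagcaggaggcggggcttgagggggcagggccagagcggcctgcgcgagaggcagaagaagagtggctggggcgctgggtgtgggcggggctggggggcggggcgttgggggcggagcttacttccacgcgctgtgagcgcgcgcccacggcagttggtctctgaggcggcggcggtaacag
2210408F21Rik: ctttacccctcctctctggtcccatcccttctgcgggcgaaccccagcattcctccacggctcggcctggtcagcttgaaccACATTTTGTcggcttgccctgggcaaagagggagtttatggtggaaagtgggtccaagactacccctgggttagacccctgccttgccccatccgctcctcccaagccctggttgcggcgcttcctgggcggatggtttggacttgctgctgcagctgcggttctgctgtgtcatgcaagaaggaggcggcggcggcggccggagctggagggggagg
4930417O13Rik: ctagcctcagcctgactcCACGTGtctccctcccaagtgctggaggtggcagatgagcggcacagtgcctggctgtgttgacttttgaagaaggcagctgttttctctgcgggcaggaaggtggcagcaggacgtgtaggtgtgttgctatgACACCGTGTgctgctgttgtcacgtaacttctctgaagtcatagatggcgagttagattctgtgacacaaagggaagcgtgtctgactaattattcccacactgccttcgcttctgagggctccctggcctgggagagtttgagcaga
1700042O10Rik: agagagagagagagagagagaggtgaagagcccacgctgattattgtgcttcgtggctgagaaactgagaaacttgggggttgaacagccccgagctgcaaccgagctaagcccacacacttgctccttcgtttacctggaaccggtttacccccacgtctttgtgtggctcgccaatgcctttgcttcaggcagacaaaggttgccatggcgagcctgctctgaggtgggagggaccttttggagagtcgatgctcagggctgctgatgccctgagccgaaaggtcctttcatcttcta
2410006H16Rik: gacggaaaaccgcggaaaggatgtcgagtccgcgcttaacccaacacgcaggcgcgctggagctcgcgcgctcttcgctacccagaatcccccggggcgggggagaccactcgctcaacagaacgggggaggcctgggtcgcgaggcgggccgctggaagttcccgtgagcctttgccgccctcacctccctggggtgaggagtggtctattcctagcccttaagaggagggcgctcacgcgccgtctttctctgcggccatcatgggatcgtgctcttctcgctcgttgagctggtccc
2700038G22Rik: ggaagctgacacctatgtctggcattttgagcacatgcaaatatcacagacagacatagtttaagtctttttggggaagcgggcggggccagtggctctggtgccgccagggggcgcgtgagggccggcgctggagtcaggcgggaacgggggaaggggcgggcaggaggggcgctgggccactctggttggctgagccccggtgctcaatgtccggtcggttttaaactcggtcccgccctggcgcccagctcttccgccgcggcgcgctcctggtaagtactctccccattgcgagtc
5730408K05Rik: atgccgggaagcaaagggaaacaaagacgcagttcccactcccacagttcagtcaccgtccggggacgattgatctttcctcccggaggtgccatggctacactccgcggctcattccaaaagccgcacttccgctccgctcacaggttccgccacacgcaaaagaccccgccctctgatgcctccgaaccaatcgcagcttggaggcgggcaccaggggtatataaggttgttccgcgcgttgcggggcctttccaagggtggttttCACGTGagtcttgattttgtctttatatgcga

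In these windows the hexamer of 8430426J06Rik begins at position 44 after the start site, and 1700001L05Rik has E-boxes at -190 and -144. The response element core of 2210408F21Rik is at -168, and 4930417O13Rik has an E-box at -232 and a response element core at -98. 5730408K05Rik has an E-box at position 18 after the start site. The windows of Gm13546, 1700042O10Rik, 2410006H16Rik and 2700038G22Rik hold none of the 3 letter patterns. A match is a description of the letters and does not show that a factor binds there.

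Windows were found for 81 of the 175 genes, and the 72 of them with a value had 83 windows. The response element core was in 7.23% of these 83 windows and in 6.85% of the 32851 windows in the table. The E-box was in 14.5% against 7.15%. The hexamer was in 11 of the 83 windows (13.3%), below its share of 18.97% in the table. Among genes at least 2-fold higher with prednisolone, 1 of 9 windows held the core, 2 the hexamer, both of 8430426J06Rik, and 3 an E-box. Among those at least 2-fold lower, each pattern was in 1 of 11 windows. The windows of the 72 genes also had more CpG dinucleotides, with a median of 15 against 7 over the whole table, and a median G+C content of 55.0% against 52.7%.

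Of the 160 measured genes, 10 were higher with prednisolone by 2-fold or more (6.25%) and 10 were lower by as much (6.25%). These shares are near the background. Among the 11970 named genes well above background on both arrays the share was 5.76% on the higher and 6.62% on the lower side. Among the 6503 protein-coding genes whose mean signal reached 400 units on at least 1 array it was 5.51% and 5.41%. The median difference of the 160 genes was -0.04, with quartiles at -0.32 and 0.25, and that of the bright protein-coding genes was 0.05, with quartiles at -0.30 and 0.38. The sign of the 160-gene median turned with 2 other scalings, to 0.19 with spike-in scaling and to 0.02 with the submitters' own table. The differences lay within 0.5 of 0 for 106 genes, and 61 differed by less than the software's error.

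**Figure D1:**
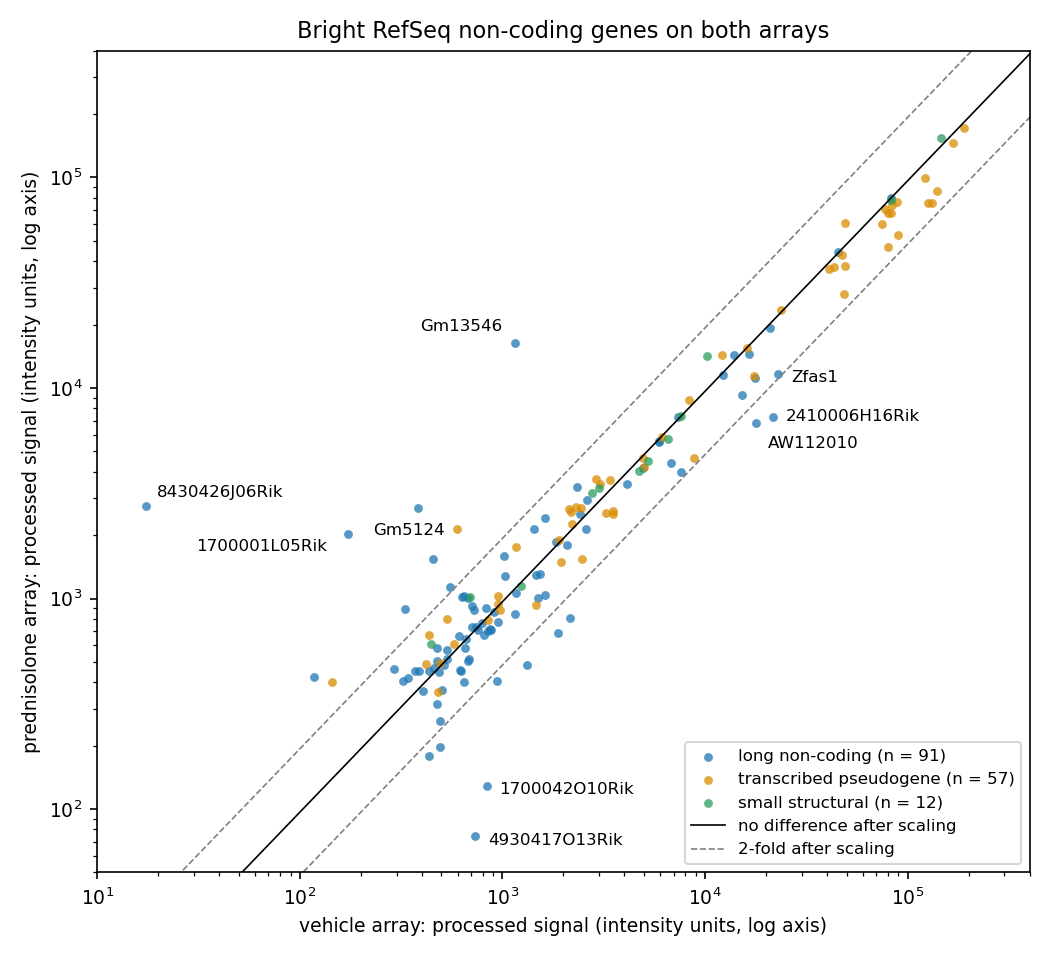
Processed signal of the 160 bright non-coding genes with a value on the vehicle array (x) and the prednisolone array (y), both in intensity units on log axes, with 1 point per gene coloured by kind. The solid line is no difference after scaling and the dashed lines are 2-fold. Most points follow the solid line over the whole range of brightness, and the genes farthest from it are 8430426J06Rik above and 4930417O13Rik below.

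By kind, long non-coding genes ranged from -3.26 to 7.36 with a median of -0.04, with 8 of 91 higher by 2-fold or more and 10 lower. Transcribed pseudogenes ranged from -0.87 to 1.89 with a median of -0.10, with 2 of 57 higher by 2-fold or more and none lower. Small structural RNAs ranged from -0.17 to 0.61 with a median of 0.07, and none of 12 was 2-fold apart. The standard deviation over genes was 1.26, 0.50 and 0.28 in these 3 kinds, and 0.71 over the bright protein-coding genes. The 1.26 includes 8430426J06Rik at 7.36. By quartiles the long non-coding genes, at -0.39 and 0.30, spread about as widely as the bright protein-coding genes, at -0.30 and 0.38. These spreads were not compared by a test.

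**Figure D2:**
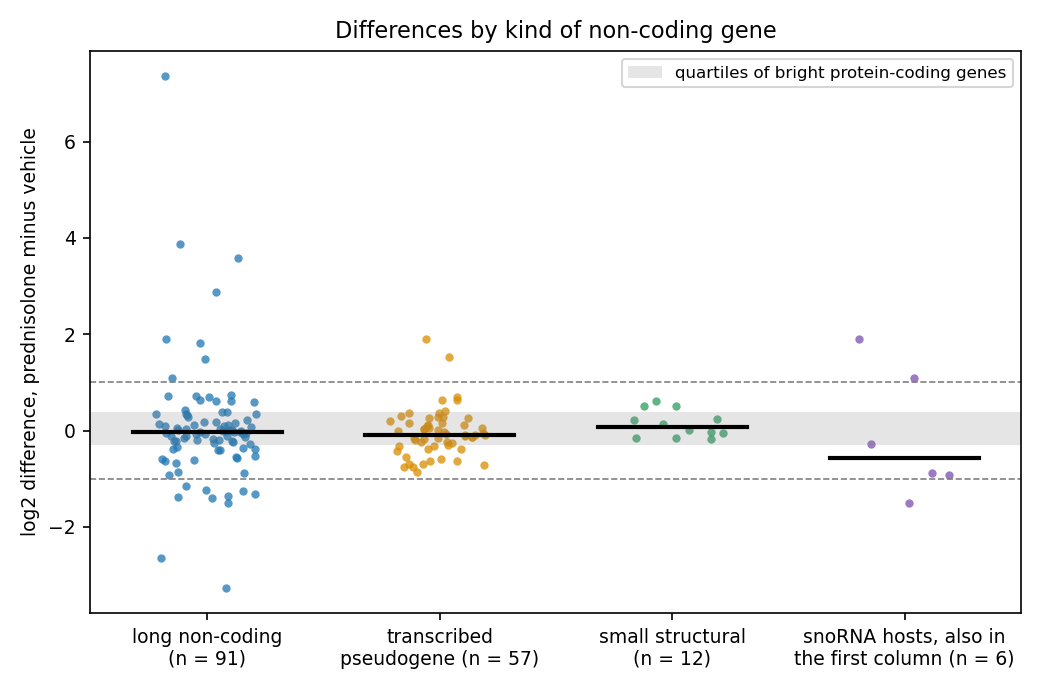
Log2 difference (prednisolone minus vehicle, y) of each bright non-coding gene by kind (x). Each point is a gene, the black bar is the median, the grey band spans the quartiles of the bright protein-coding genes (-0.30 to 0.38) and the dashed lines mark 2-fold. The long non-coding genes spread from -3.26 to 7.36 and the 12 small structural RNAs stay between -0.17 and 0.61.

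The most extreme difference was that of 8430426J06Rik, a long non-coding gene beside the gene for the melanin-concentrating hormone receptor Mchr1. Its probe read 17.4 units on the vehicle array and 2761 on the prednisolone array, 164-fold apart (7.36 ± 0.32). It was dim on the vehicle array and bright on the other. The size of this difference depends on how the dim signal was corrected for background: with a normexp correction it was 4.97. Mchr1, within 5 kb, read 34.4 and 32.7 units (-0.03 ± 0.25).

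Gm13546, which overlaps Cytip, read 1154 units with vehicle and 16285 with prednisolone, a 14.6-fold difference (3.87 ± 0.20). Cytip encodes an adaptor that binds cytohesin and limits integrin-mediated adhesion of leukocytes, and it read 1421 and 4232 units, 3.08-fold higher with prednisolone (1.62 ± 0.14 over 2 probes). The probes of the non-coding gene and of the coding gene it overlaps thus both read higher on the prednisolone array, that of Gm13546 by more. Probe sequences were not used, so whether a probe of an overlapping pair also reads the other gene cannot be told, here and below. 1700001L05Rik read 173 and 2015 units, 12.02-fold apart (3.59 ± 0.21). Arfgap3, within 5 kb of it, encodes a GTPase-activating protein of the Golgi and read 845 and 3625 units, 4.44-fold apart (2.15 ± 0.20). This second pair also shared its direction.

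2210408F21Rik read 382 units with vehicle and 2699.9 with prednisolone, 7.32-fold apart (2.87 ± 0.20). Its nearest coding gene Mkln1, which encodes the E3 ligase subunit muskelin, lies farther than 5 kb away and differed by 0.36 ± 0.22. Gm20324 read 453 and 1539 units, 3.52-fold apart (1.81 ± 0.20). The transcriptional coregulator gene Tcf20, which Gm20324 overlaps, differed by -0.13 ± 0.21. Zfp783, classed as long non-coding despite its zinc finger name, read 331 and 891 units, 2.79-fold apart (1.48 ± 0.20), and the overlapping zinc finger gene Zfp956 differed by -0.11 ± 0.20. In these 3 places the non-coding gene stood apart and its coding neighbour stayed within 2-fold.

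The gene farthest below 0 was 4930417O13Rik, which read 736 units with vehicle and 74.1 with prednisolone, 9.59-fold lower (-3.26 ± 0.21), and -2.45 with normexp. It lies within 5 kb of the α-tubulin gene Tuba3a, which read 8809 and 9918 units (0.22 ± 0.20). 1700042O10Rik read 839 and 129 units, 6.29-fold lower (-2.65 ± 0.21). It overlaps Ddc, the gene for aromatic L-amino acid decarboxylase, which makes dopamine and serotonin from their precursors, and Ddc read 1392 and 536 units, 2.51-fold lower (-1.33 ± 0.20). The first of these genes thus stood apart from its coding neighbour and the second shared its direction.

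AW112010, a transcript abundant in activated immune cells from which a small protein has been described, read 17769 units with vehicle and 6841 with prednisolone, 2.51-fold lower (-1.33 ± 0.20). It was bright on both arrays. Gm11110, which overlaps the 4-1BB ligand gene Tnfsf9, read 1319 and 482 units, 2.64-fold lower (-1.40 ± 0.20), and Tnfsf9 differed by -0.42 ± 0.20. A930005H10Rik, head to head with the diphthamide synthesis gene Dph5, read 1870.0 and 689.7 units, 2.62-fold lower (-1.39 ± 0.20), and Dph5 differed by -0.20 ± 0.20. A430093F15Rik read 2147 and 805 units, 2.58-fold lower (-1.37 ± 0.20), beside Cd5, an inhibitory receptor of T cells, at -0.46 ± 0.20. In these 3 pairs the non-coding transcript was more than 2-fold lower and the coding neighbour was below 0 by less. For Dph5 the difference was smaller than the software's error, so its direction is not settled.

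2500002B13Rik, head to head with Sap30, a subunit of the Sin3 histone deacetylase complex, read 489.6 units with vehicle and 197 with prednisolone, 2.40-fold lower (-1.27 ± 0.21). Sap30 read 947 and 485 units, 1.89-fold lower (-0.92 ± 0.20). Lppos, on the opposite strand of the LIM-domain gene Lpp, read 939 and 406 units, 2.23-fold lower (-1.16 ± 0.20), and Lpp read 276 and 140 units, 1.90-fold lower (-0.93 ± 0.21). Both pairs lay close to the 2-fold mark in the same direction. 4921525O09Rik read 432 and 178 units, 2.35-fold lower (-1.23 ± 0.21), and its nearest coding gene, the stress-response gene Gadd45g, differed by -0.36 ± 0.20. With spike-in scaling Lppos and 4921525O09Rik came within 2-fold, and with normexp so did 4921525O09Rik and the snoRNA host 5730408K05Rik.

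**Figure D3:**
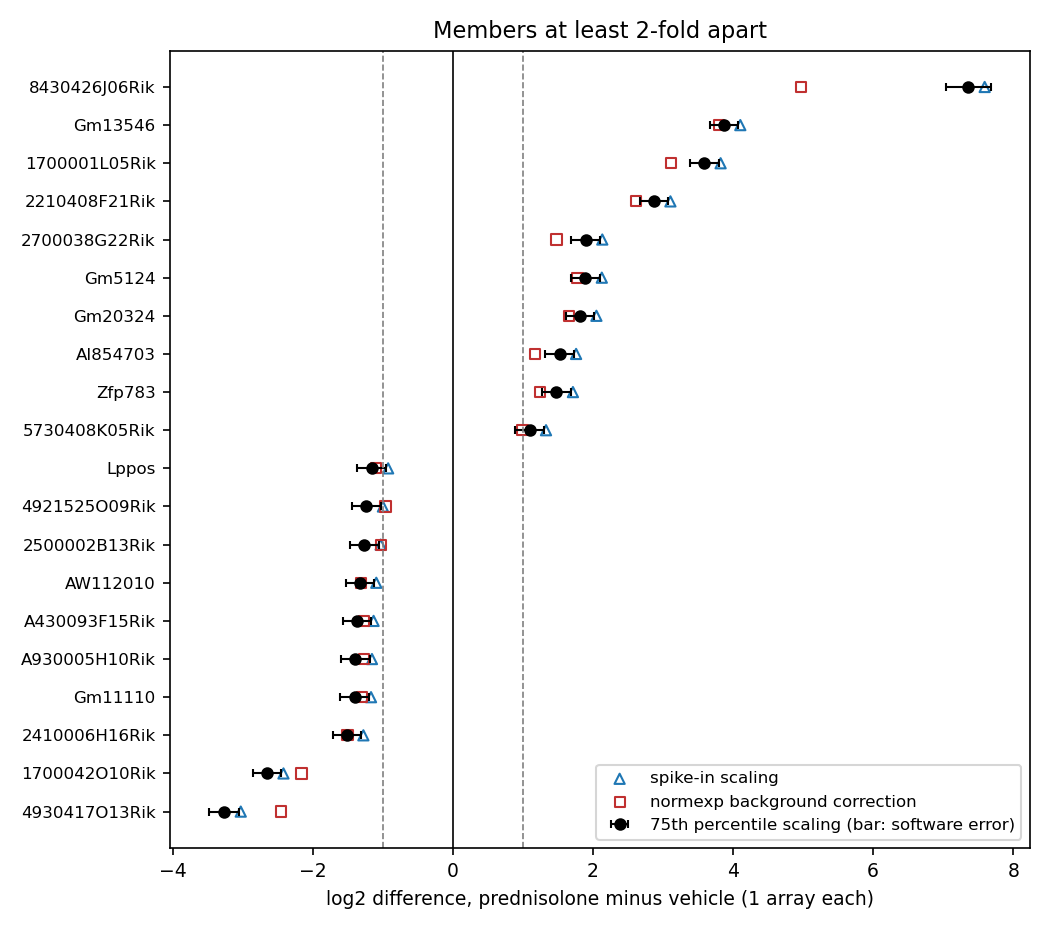
Log2 difference (prednisolone minus vehicle, x) of the 20 bright non-coding genes at least 2-fold apart (y, named). Black points use the 75th percentile scaling, with the software's error as bars, open triangles use spike-in scaling and open squares use normexp background correction. 8430426J06Rik goes from 7.36 to 4.97 with normexp and 4930417O13Rik goes from -3.26 to -2.45, while each of the 20 keeps its sign in all 3 settings.

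Each of the 20 genes rests on 1 probe. Of the 10 higher genes, 4 were at 400 units or more on both arrays (Gm13546, Gm5124, Gm20324 and 5730408K05Rik), and of the 10 lower genes 6 were. The others entered through the array where they were bright. Probes of the same gene too dim for the brightness rule existed for 9 genes, none of them among the 20. In 5 of the 9 such a probe lay more than 0.5 from the gene's value. The widest gap was that of Gt(ROSA)26Sor, the locus used for transgene insertion, named here after its values were seen, at 0.62 with dimmer probes at -0.35 and 0.08.

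Of the 20 genes, 17 had a measured coding neighbour. The neighbour was at least 2-fold apart in the same direction for 3 of them (Cytip, Arfgap3 and Ddc), in the opposite direction for none, and within 2-fold for 14. Among all named genes 5.76% were at least 2-fold higher and 6.62% lower. Over all pairs with both values, the neighbour was 2-fold apart in 7 of 71 overlapping or within 5 kb and in 6 of 27 farther apart. Over the 34 overlapping pairs with both values, Pearson's r across pairs was 0.61 and Spearman's rho 0.46. For 37 pairs within 5 kb r was 0.28 and rho 0.26, and for 27 pairs farther apart r was 0.13 and rho 0.10. All pairs come from the same 2 arrays and share their scaling, so these are descriptions without a test. Probes were not checked against overlapping genes, so in overlapping pairs shared signal cannot be told apart from a shared difference. Without Gm13546 and 1700042O10Rik, whose neighbours lie farthest from 0, r over the other 32 overlapping pairs was 0.24 and rho 0.35. Head-to-head pairs, whose genes start within 1000 bases of each other, numbered 13 with r 0.34 and rho 0.32.

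**Figure D4:**
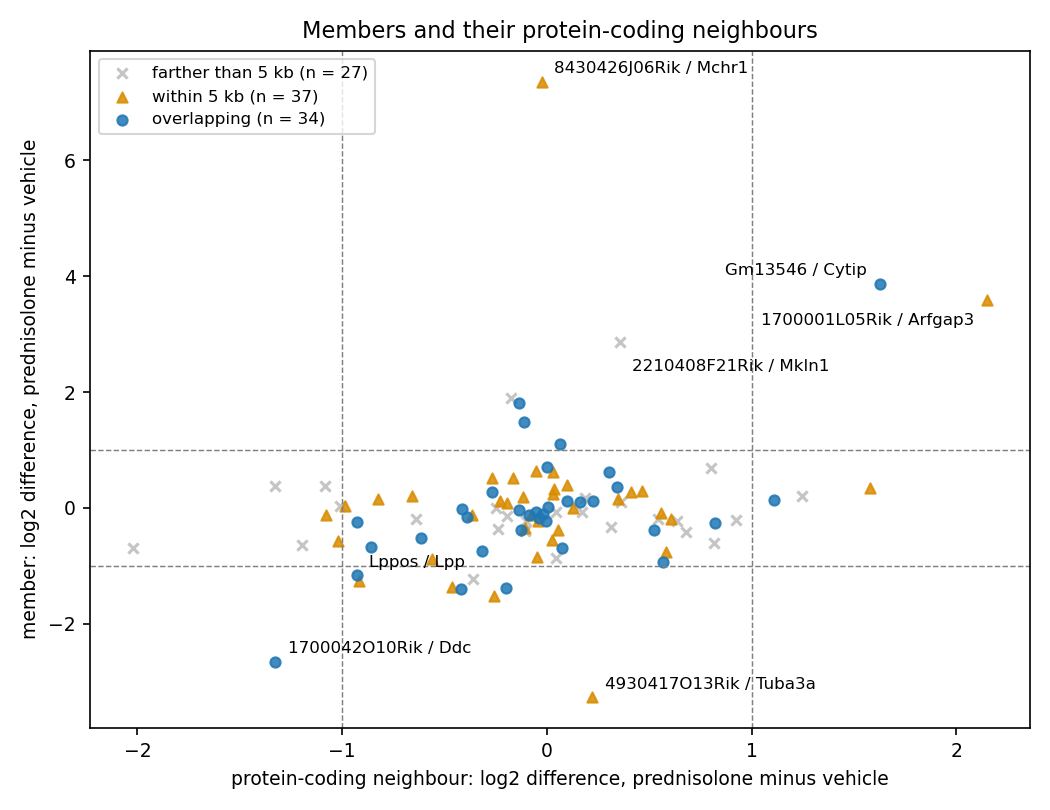
Log2 difference (prednisolone minus vehicle) of each bright non-coding gene (y) against that of its protein-coding neighbour (x), for 34 overlapping pairs, 37 pairs within 5 kb and 27 pairs farther apart. Dashed lines mark 2-fold. Gm13546 with Cytip and 1700001L05Rik with Arfgap3 lie at the upper right and 1700042O10Rik with Ddc at the lower left, while 8430426J06Rik and 4930417O13Rik lie far from 0 with neighbours near 0.

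The hosts of snoRNAs outside the Snhg genes were few and went both ways. Of 8 long non-coding genes with an annotated snoRNA within their bounds, 6 had a value, with a median of -0.58. The strand of the snoRNA was not compared with that of the gene. 2410006H16Rik, which holds Snord49a, Snord49b and Snord65, read 21568 units with vehicle and 7308 with prednisolone, 2.85-fold lower (-1.51 ± 0.20). Its neighbour Lrrc75a differed by -0.26 ± 0.20. Zfas1, the host of Snord12, read 23020 and 11708 units, 1.90-fold lower (-0.93 ± 0.20). Znfx1, which Zfas1 overlaps and which encodes an RNA-binding helicase, was above 0 at 0.56 ± 0.20. Epb41l4aos read 7646 and 3994 units (-0.89 ± 0.20), so these 3 hosts all read lower on the prednisolone array. The other direction was seen in 2700038G22Rik, host of Snord93, at 118 and 426 units, 3.73-fold higher (1.90 ± 0.21), and in 5730408K05Rik, host of Snora57, at 550.4 and 1136 units, 2.14-fold higher (1.10 ± 0.20). Their coding neighbours Tomm7, of the mitochondrial import pore, and Lbhd1 differed by -0.17 ± 0.20 and 0.06 ± 0.14. The snoRNA Snora73a itself read 10267 and 14162 units (0.51 ± 0.20). The remaining host with a value, AI506816, differed by -0.27 ± 0.20, and the median moved to -0.31 when the 2 hosts with flagged spots were included.

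Genes named for lying on the opposite strand of a coding gene numbered 11, of which 9 had a value. Of these, 7 were below 0, 1 was at least 2-fold lower (Lppos), and the median was -0.11. In 7 of them the coding gene was measured too, and in 6 the pair agreed to within 0.5. Fbxl12os, which differed by 0.19 ± 0.20 where the F-box gene Fbxl12 differed by -0.58 ± 0.20, was the exception.

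Transcribed pseudogenes made up much of the group, and many are copies of genes that every cell uses. Whether a probe reads the pseudogene or the coding gene it derives from cannot be told apart here, because probe sequences were not used. Signals on these arrays reached 189811 units with vehicle and 171614 with prednisolone. Of the genes chosen for the highest signal on either array, which also depends on the probe, Gm5523 and Gm8624 differed by -0.10 ± 0.20 and -0.14 ± 0.20, and Gm12070, 3000002C10Rik and Gm8709 by -0.63, -0.75 and -0.69. Gm6548 differed by -0.24. Of the brightest genes that are not pseudogenes, the long non-coding Gm20751 differed by less than 0.01 and the small structural RNA Rn4.5s by 0.13. None of these was 2-fold apart, and 2 pseudogenes were. Gm5124 read 599 and 2148 units, 3.71-fold apart (1.89 ± 0.20). AI854703 read 145 and 402 units, 2.88-fold apart (1.52 ± 0.21), and was the gene just inside the brightness threshold.

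Pseudogenes and related sequences named after a measured coding gene were set beside it. In 8 pairs the pseudogene minus its coding gene ranged from -0.22 to 0.49 with a median of -0.01, and all 8 were within 0.5. Since 42 of the 57 pseudogenes and 7712 of the 11970 named genes lay within 0.5 of 0 themselves, pairs of unrelated genes would often lie this close too. Tyms-ps and Tyms, the gene of thymidylate synthase, both differed by 0.63. Smarca5-ps and the chromatin remodeller gene Smarca5 differed by 0.15 and 0.18. In both of these pairs the copy and its coding gene differed by nearly the same amount. Pisd-ps1 and Pisd-ps3 straddled the phosphatidylserine decarboxylase gene Pisd, at 0.28 and -0.43 against -0.21.

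**Figure D5:**
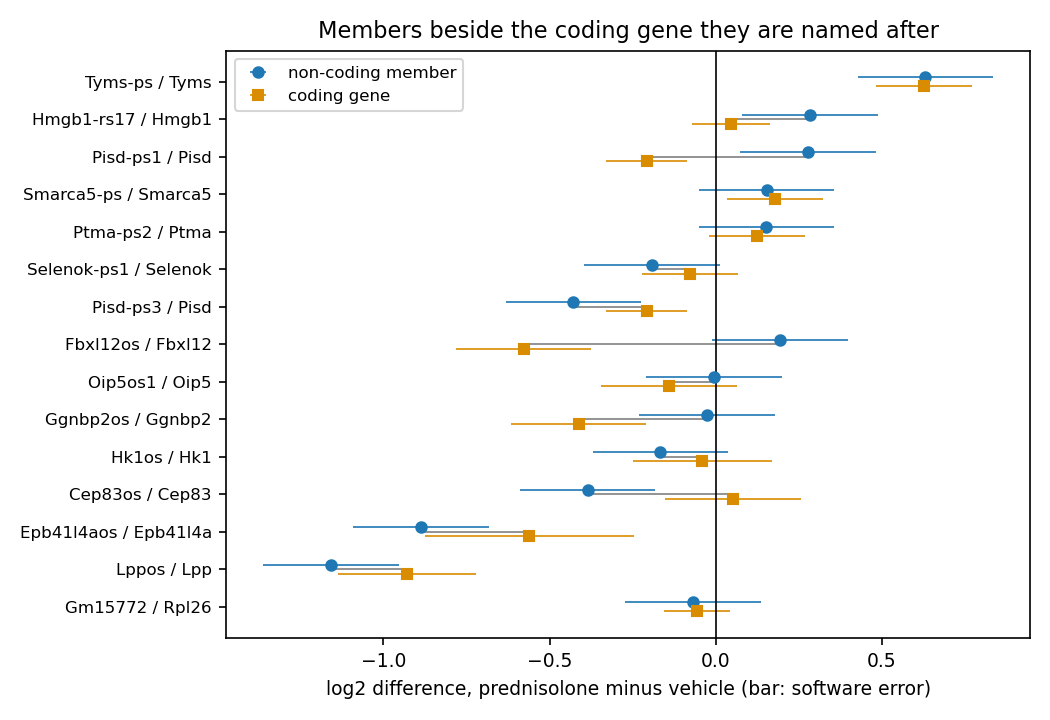
Log2 difference (prednisolone minus vehicle, x) of each bright non-coding gene (circles) and the coding gene it is named after (squares), with the software's error as bars and a grey line joining the pair. The pseudogene and related-sequence pairs shown stay within 0.5 of each other, and the widest gap among the opposite-strand pairs is that of Fbxl12os and Fbxl12 at 0.77.

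None of the 12 measured small structural RNAs was 2-fold apart, and all are named here, some after their values were seen. Rpph1, the RNA of ribonuclease P, which trims transfer RNA precursors, read 688 units with vehicle and 1017 with prednisolone, 1.53-fold apart (0.61 ± 0.20). Rmrp, the RNA of ribonuclease MRP, which processes ribosomal RNA, read 444 and 611 units, 1.42-fold apart (0.51 ± 0.20). These 2 related RNAs and Snora73a were the members of the kind farthest from 0. Rn7sk, the RNA that holds the elongation factor P-TEFb inactive, differed by 0.21 ± 0.20, and Rn7s1, of the signal recognition particle, by 0.24 ± 0.20. Both lie near the software's error. Rnu12 of the minor spliceosome differed by 0.00, Rn28s1, a ribosomal RNA that is not small, by -0.03, Rnu3b1 by -0.05 and Rn4.5s by 0.13. The U1 genes Rnu1a1, Rnu1b6 and Rnu1b1, near-identical copies whose probes may share signal, differed by -0.15, -0.16 and -0.17. With spike-in scaling, which adds a constant to every gene, the median of the 12 was 0.30 against 0.24 for all named genes.

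Among better-known long non-coding RNAs, Pvt1, which neighbours Myc, read 1629 and 1038 units on its bright probe, 1.52-fold apart (-0.60 ± 0.20). Myc, which lies farther than 5 kb away, went the opposite way, at 783 and 1331 units (0.81 ± 0.14). Lockd, transcribed downstream of the cell cycle inhibitor gene Cdkn1b, read 6778 and 4397 units (-0.57 ± 0.20), and Cdkn1b itself read 5516 and 2624 units, 2.03-fold lower (-1.02 ± 0.20). Lockd and its neighbour shared a direction, with Cdkn1b just past 2-fold. Kcnq1ot1, which silences an imprinted domain, read 759 and 708 units on its bright probe (-0.05 ± 0.20), but 0.65 on a dimmer one. Chaserr and Norad are named after their values were seen. Chaserr, which restrains the chromatin remodeller Chd2 beside it, differed by -0.67 ± 0.20 and Chd2 by -0.86 ± 0.20. Norad, which binds Pumilio proteins, differed by 0.59 ± 0.14.

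Of 25 well-known non-coding genes looked up whatever their value, 8 were among the bright genes and 13 had a value. Dimmer ones were Neat1 of the paraspeckles (-0.52 ± 0.15), Tug1 (-0.24 ± 0.21), Jpx, an activator of Xist (118 and 55.2 units, -1.05 ± 0.22), Morrbid (0.82 ± 0.15) and Dleu2, the host of miR-15a and miR-16-1 (100.1 and 201 units, 1.05 ± 0.21). Xist, Mir155hg, Meg3 and Nron were not well above background, and H19, Miat and Ftx were so on 1 array only. Malat1, Mir17hg, Mir142hg and Dancr were not matched to a probe, and Terc had no usable spot.

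Lists of related genes, chosen with earlier results of these data known and including dimmer genes, are given by their counts and medians beside a median of 0.00 for all named genes. None of 8 nuclear long non-coding RNAs was 2-fold apart (median -0.36). Of 3 measured genes on the microRNA host list, Mir22hg and Dleu2 were at least 2-fold higher (median 1.05). The other gene on that list, Mirt1 (-0.37 ± 0.20), has no annotated microRNA inside it. Of 9 non-coding genes with a role in immune cells Mir22hg, Dleu2 and Flicr were at least 2-fold higher (median 0.82). These 3 were dim, and Flicr read only 14.6 and 34.6 units. Mir22hg and Dleu2 are on both lists, so the medians of 1.05 and 0.82 are not separate observations. Of 6 snoRNA hosts outside the Snhg genes, coding hosts included, 2410006H16Rik alone was at least 2-fold lower (median -0.49). None of 4 imprinted genes was 2-fold apart (median 0.02), and Jpx was the single measured gene of the X-inactivation centre. The list of small structural RNAs had 10 measured genes, none 2-fold apart and all above 0, Rnu12 by less than 0.01 and therefore below 0 without scaling (median 0.53). It leaves out Snora73a and also the U1 genes, Rnu3b1 and Rn28s1, which lay below 0. Of the 12 bright small structural RNAs 5 were below 0, with a median of 0.07, so the list does not stand for the kind. The list includes Rprl1, Rprl2 and Rprl3, close relatives of Rpph1 whose probes may share signal with it, at 0.54, 0.67 and 0.70.

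The genes of the protein machinery that acts on these RNAs had medians above 0, from 0.08 to 0.62. Their few genes at least 2-fold apart are to be read against the 5.76% higher and 6.62% lower among all named genes, and 1 or 2 of 13 to 16 genes is near those shares. Of 15 genes for proteins of ribonuclease P, ribonuclease MRP and telomerase, 14 were above 0 and 2 at least 2-fold higher, with a median of 0.62. These were Pop1, at 1457 and 3300 units (1.23 ± 0.20), and Pop5, at 4816 and 9863 units (1.08 ± 0.14). The list thus lay on the same side as Rpph1 and Rmrp. Of 16 nuclear exosome genes, which degrade and trim non-coding RNA, Exosc1 (1.35 ± 0.20) and Exosc6 (1.46 ± 0.20) were at least 2-fold higher and none lower (median 0.30). Of 14 genes of nonsense-mediated decay, which removes many snoRNA host transcripts, Smg5 was at least 2-fold higher (1.15 ± 0.20) and none lower (median 0.22). Of 13 microRNA biogenesis genes, Dgcr8, the partner of Drosha, was higher (352 and 1030 units, 1.60 ± 0.20) and Prkra, a partner of Dicer, lower (445 and 127 units, -1.76 ± 0.21), with a median of 0.08 that lay just below 0, to -0.0044, when only the brightest probe of each gene was used. None of 12 paraspeckle protein genes was 2-fold apart (median 0.17).

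The 15 genes with only flagged spots had flags on the local background and none on the spot itself. Their values, less sure for that reason, included 3 that were lower by 2-fold or more and none higher by as much. Gm8013 read 416 and 77.9 units (-2.37 ± 0.21), Dubr 1068 and 495 units (-1.06 ± 0.20) and 2310010J17Rik 3594 and 1710.1 units (-1.02 ± 0.20). Dubr was the single gene of the 175 with an annotated microRNA within its bounds. That microRNA lies on the plus strand and the start-site window of Dubr on the minus strand, so they are on opposite strands. The mature microRNA is shown, from RefSeq on GRCm38.p6, with its seed (bases 2 to 8) in capitals, and its own level was not measured.
mmu-miR-6363: uGUAGACUggacuguccucaaa

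Just inside the brightness threshold were AI854703, given above, Hoxb5os at 406 and 363 units (-0.11) and 4930483O08Rik at 321 and 407 units (0.39). Just outside were 9130221H12Rik at 397 and 383 units (within 0.01 of 0), Tubb2a-ps2 at 367 and 395 units (0.16) and Gm16973 at 386 and 299 units (-0.32). Below the threshold, 400 dimmer non-coding genes had a value, 26 of them higher by 2-fold or more, 24 lower by as much, and the median -0.01. The bright genes nearest to 0 were Rnu12, Gm11240, Gm20751, Oip5os1, Gm6756 and Gm8096, each within 0.01 of it. For 7 of the pseudogenes the array carries the same probe many times, and 7 to 9 unflagged copies gave a standard deviation of 0.02 to 0.05. That is the repeatability of a spot on these arrays and says nothing of the spread between cultures.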

How the data were processed

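RNA from 2 cultures was measured on 2 one-colour Agilent arrays. Per the file headers, the deposited spot intensity values were written by Agilent Feature Extraction 12.0.3.1 with protocol GE1_1200_Jun14, background-subtracted within each array; the array design used build mm9. The submitters' table of intensity values equals that signal times 1 constant per array (0.792 and 0.858), on a linear scale and not centred (column medians 16.2 and 16.4); the basis of these constants was not stated in the sources used here.

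Each processed signal was divided by the 75th percentile of non-control spots on its array (400.4 for vehicle, 386.9 for prednisolone) and put on the log2 scale. Controls and outlier-flagged spots (7.20% and 8.92%) were left out, spots were averaged per probe, and the probes that met the rule per gene. Accessions were matched without versions to a RefSeq table of GRCm38.p6, which named 2562 of 2619 spots for non-coding accessions. "2-fold" is a log2 difference of 1 or more either way, without a test. Neighbours were taken by the distance between gene bounds, not start sites as planned, because that table gives no strand. Of several overlapping coding genes a measured one, first by symbol, was taken. Head-to-head pairs were read from the start sites and strands of the RefSeq promoter windows, so a gene without a window could not be placed. Lists use every measured probe of a gene. Some genes are not reported here by name.

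The members, lists and rules were chosen with earlier results of these data known. Named genes are those 2-fold apart, the 6 brightest on either array, 3 on each side of the threshold, the 6 nearest to 0, 25 well-known genes, their coding neighbours and non-members on which a result turns; others are said to be named after their values were seen, except the genes in the paragraphs on lists, paired names and cell markers. Alternatives covered scaling (spike-ins, none, median, quantile), normexp background correction (limma 3.58.1, R 4.3.3, offset 50, on the median instead of the planned mean signal, which the columns used here do not hold), flags, the threshold, probe choice and the submitters' table. The procedure was tested on simulated data. Python 3.11.15 with pandas 2.3.3 was used. The number of arrays limits the precision.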

Additional observations from a re-analysis of the deposited data

Results flagged for a closer look

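Gm4956, a non-coding gene, was well above background on the prednisolone array only and so met no comparison of bright genes on both arrays. It read 12.3 units with vehicle, not well above background, and 739 with prednisolone, at least 59.4-fold higher. The bound sets its prednisolone signal against the higher of the lowest signal well above background on the vehicle array and the probe's own signal there. It was the single gene of its kind over 400 units among 68 non-coding genes seen with prednisolone only, of which 20 had a bound of at least 2-fold. In the opposite direction 74 genes were seen with vehicle only, 28 of them with such a bound and none over 400 units.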

How the results depend on the processing

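Across the 12 other settings each of the 20 genes 2-fold apart kept its direction wherever it had a value. Spike-in scaling, from 8 spike-in probes, moved the median of all named genes to 0.24 and the higher share of all genes 2-fold apart from 46.6% to 70.2%; it was 41.8% without scaling and 53.3% with the submitters' table. Under it the median was 0.19 for the 160 genes, 0.20 for long non-coding genes, 0.14 for pseudogenes, 0.30 for small structural RNAs, -0.35 for snoRNA hosts, 0.31 for microRNA biogenesis, 0.40 for paraspeckle proteins, 0.85 for ribonuclease P, MRP and telomerase proteins, 0.46 for nonsense-mediated decay and 0.53 for the exosome. With a threshold of 200 units 17 of 229 genes were at least 2-fold higher and 12 lower, and with 400 units on both arrays 4 were higher and 6 lower, of 140. The snoRNA host median was -0.31 with flagged spots kept, and also with only spots flagged on themselves left out, a setting chosen after seeing the data; it was -0.89 with a threshold of 800 or with 400 units on both arrays. With flagged spots kept 10 genes were higher and 13 lower, and with normexp 9 and 9. No paired analysis was possible because each condition has 1 array.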
